A study of Mus musculus with 2 samples.

Results

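The mouse alpha-globin cluster and its neighbours occupy a 200 kb span of chromosome 11, and this account covers 9 genes there and the regions of accessible chromatin listed around them. The genes were chosen by name: Hba-x, Hba-a1, Hba-a2, Hbq1b and Hbq1a of the globin cluster, and Nprl3, Mpg, Rhbdf1 and Snrnp25 beside it. They are 9 of 21938 protein-coding genes in GENCODE M21, placed on the mm10 build that the lists use. The span, chr11:32150001-32350000, held 10 regions over both replicates, of 25801 in the whole series. The assay was ATAC-seq, which uses a transposase to place sequencing adapters where the DNA is not packed away. The only group was G1E, a mouse cell line on the C57BL/6J background, labelled male, postnatal, 0 days of age and a Gata1- erythroid progenitor. It had 2 biological replicates of 50000 cells each, with no treatment named. Both replicates come from 1 line that lacks the transcription factor GATA1, so no comparison between conditions exists, and the labels do not say whether the cultures were separate.

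An alpha-globin chain pairs with a beta-globin chain to form hemoglobin. Hba-x encodes the embryonic zeta chain, Hba-a1 and Hba-a2 encode the adult alpha chains, and Hbq1b and Hbq1a encode theta-globin. The genes are switched on in maturing red cells by enhancers that lie far upstream, most of them inside introns of Nprl3, a gene of the GATOR1 complex that restrains mTORC1 signalling. In erythroid cells these enhancers are known to be bound by GATA1, TAL1 and KLF1, and GATA2 occupies many GATA sites in progenitors before GATA1 does.

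The 5 listed regions between Mpg and Hba-x each overlapped 1 of 5 RefSeq enhancer fragments, named R1, R2, R3, Rm and R4. Their summits lay inside those fragments in both replicates. Their sequences are shown because the cells lack GATA1 while the windows hold the strings that GATA proteins read. Each run is 200 bases of mm10 around the stronger summit, 5′ to 3′ on the plus strand. Capitals mark matches on either strand to the GATA string, which is AGATAA or AGATAG or TGATAA or TGATAG, and to the AP-1 string TGANTCA, where N is any base. R1 is at chr11:32245705-32245904, R2 at chr11:32250944-32251143, R3 at chr11:32256242-32256441, Rm at chr11:32265152-32265351 and R4 at chr11:32269064-32269263.
R1: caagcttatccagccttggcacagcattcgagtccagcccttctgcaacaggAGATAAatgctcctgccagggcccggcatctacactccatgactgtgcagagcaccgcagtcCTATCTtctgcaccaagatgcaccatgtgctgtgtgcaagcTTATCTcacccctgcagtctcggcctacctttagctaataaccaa
R2: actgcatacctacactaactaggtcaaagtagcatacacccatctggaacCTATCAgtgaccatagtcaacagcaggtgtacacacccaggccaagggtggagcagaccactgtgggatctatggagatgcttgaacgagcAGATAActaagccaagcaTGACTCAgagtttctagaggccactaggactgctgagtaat
R3: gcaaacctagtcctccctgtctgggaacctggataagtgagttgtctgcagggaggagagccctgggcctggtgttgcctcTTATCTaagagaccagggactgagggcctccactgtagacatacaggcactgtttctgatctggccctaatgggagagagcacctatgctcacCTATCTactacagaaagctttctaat
Rm: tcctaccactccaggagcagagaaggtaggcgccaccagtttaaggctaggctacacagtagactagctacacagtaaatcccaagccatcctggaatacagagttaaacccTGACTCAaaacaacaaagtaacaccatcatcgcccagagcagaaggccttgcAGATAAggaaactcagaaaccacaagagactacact
R4: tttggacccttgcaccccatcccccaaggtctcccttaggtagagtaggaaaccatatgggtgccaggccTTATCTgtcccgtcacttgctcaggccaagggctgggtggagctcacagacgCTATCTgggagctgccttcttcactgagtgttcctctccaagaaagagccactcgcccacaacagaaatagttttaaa

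Start-site sequence is shown for Snrnp25, whose region had the highest mean percentile of the span, and for the adult alpha-globin genes, since both bear on the values below. The runs are taken from the RefSeq promoter table for GRCm38.p6, whose primary chromosomes are those of mm10, and both are on the plus strand, ending just before the gene. Capitals mark the GATA string and the CCAAT box. The Snrnp25 run is at chr11:32205165-32205414 and the Hba-a2 run at chr11:32296242-32296488.
Snrnp25: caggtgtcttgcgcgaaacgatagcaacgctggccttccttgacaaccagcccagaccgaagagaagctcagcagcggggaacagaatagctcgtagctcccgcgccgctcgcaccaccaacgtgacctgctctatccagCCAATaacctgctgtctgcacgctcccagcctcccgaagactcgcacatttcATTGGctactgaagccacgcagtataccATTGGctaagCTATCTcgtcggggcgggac
Hba-a2: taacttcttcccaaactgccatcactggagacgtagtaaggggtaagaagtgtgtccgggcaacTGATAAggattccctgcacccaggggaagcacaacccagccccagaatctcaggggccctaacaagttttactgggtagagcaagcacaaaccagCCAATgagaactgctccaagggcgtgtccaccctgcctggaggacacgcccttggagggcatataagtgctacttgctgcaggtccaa

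Across the span replicate 1 listed 10 regions and replicate 2 listed 9, a mean of 9.5 ± 0.707 (SD, n = 2), and 9 were in both. The main lists are the authors' per-replicate lists cut at an irreproducible discovery rate (IDR), a measure of whether a peak keeps its rank when the peaks are called again in a second set of reads. In the 9 shared regions the summits of the replicates lay between 2 and 59 bp apart, with a median of 12 bp against 18 bp for all 17425 regions shared in the series. When the genome was divided into 13600 tiles of 200 kb, the median tile held 0 shared regions, 60.9% held none, and 217 tiles (1.60%) held 9 or more. Each region has a deposited signal value, the enrichment given by the authors' peak caller. These values are not scaled between libraries, so each is given with its percentile by signal within that replicate's own list. The shared regions of the span had a median percentile of 74.5 in replicate 1 and 71.7 in replicate 2.

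**Figure D1:**
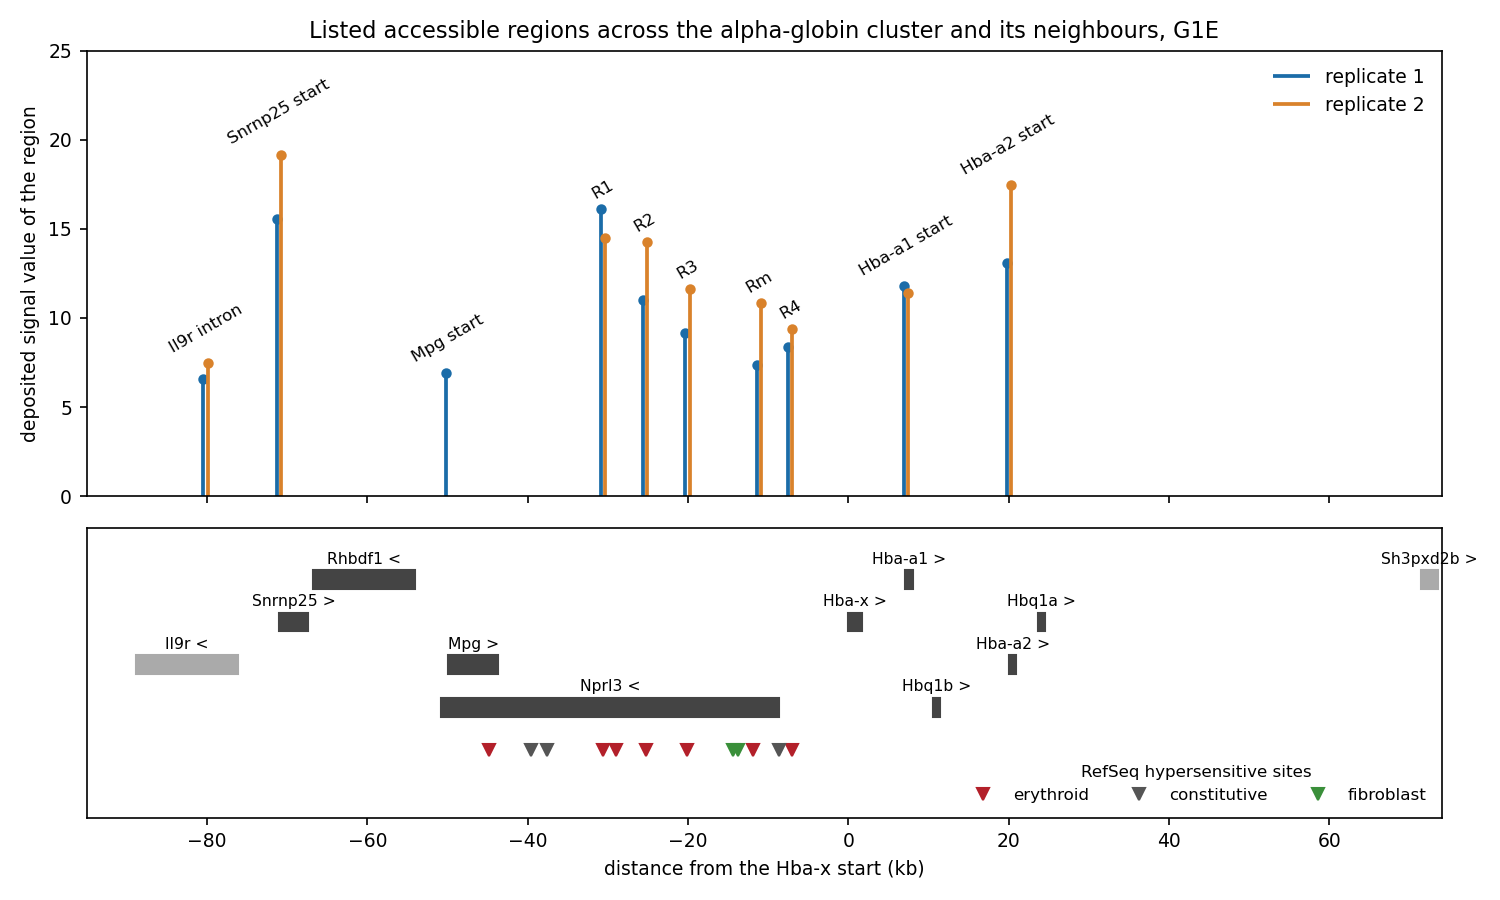
Upper panel: deposited signal value of each listed region of the span (y axis) against the distance of its summit from the Hba-x start in kb (x axis), with 1 line per replicate. Lower panel: gene bodies with their strand (members dark, other genes grey) and the RefSeq hypersensitive sites by class. The 5 enhancer regions stand between R1 and R4 over and beside Nprl3, the alpha-globin starts stand to their right, and Mpg has a line in replicate 1 only.

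In both replicates 4 of the 9 genes had a promoter region, namely Hba-a1, Hba-a2, Nprl3 and Snrnp25. A promoter region here comes within 1000 bp of an annotated start of any of the gene's transcripts. Over all protein-coding genes 39.1% had one in both replicates, 40.5% in replicate 1 and 42.1% in replicate 2, so 4 of 9 is near the background. Replicate 1 alone listed 5 members, with Mpg as the addition, and replicate 2 alone listed 4. Hba-x, Hbq1b, Hbq1a and Rhbdf1 had none in either replicate. Counted at the outermost 5′ start only, 3 members had one in both replicates, against 35.7% of all genes, and Nprl3 was the one lost. In the authors' more lenient per-replicate lists 5 members had one in both, against 43.3% of all genes, and Mpg was the one gained. Hba-a1 and Hba-a2 share their sequence, and without them 2 of 7 members had a promoter region in both. The lists give no read totals, so the depth is unknown and an unlisted start is not shown to be closed.

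R1 was the strongest region of the span outside start sites. It lay in intron 6 of Nprl3, 30.6 kb upstream of the Hba-x start, at chr11:32245408-32246035. Its signal was 16.1 in replicate 1 and 14.5 in replicate 2, at percentiles 95.8 and 86.6, a mean of 91.2 ± 6.49 (SD, n = 2). The region covered 100% of the R1 fragment in replicate 1 and 89.3% in replicate 2.

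R2, long known as the major enhancer of the cluster, lay in intron 4 of Nprl3, 25.4 kb upstream of Hba-x, at chr11:32250793-32251469. Its signal was 11.02 in replicate 1 and 14.2 in replicate 2, at percentiles 74.5 and 85.7, a mean of 80.1 ± 7.90 (SD, n = 2). R1 ranked above R2 in both replicates, by less than 1 percentile point in replicate 2.

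The other 3 enhancer regions ranked lower. R3, in intron 2 of Nprl3 and 20.1 kb upstream of Hba-x (chr11:32256206-32256650), had signals of 9.17 and 11.6 at percentiles 60.0 and 71.7, a mean of 65.9 ± 8.25 (SD, n = 2). Rm, in intron 1 and 11.1 kb upstream (chr11:32265125-32265466), had signals of 7.38 and 10.8 at percentiles 41.4 and 66.1, a mean of 53.8 ± 17.5 (SD, n = 2). R4, between Nprl3 and Hba-x and 7.24 kb upstream (chr11:32268991-32269299), had signals of 8.39 and 9.37 at percentiles 52.6 and 54.4, a mean of 53.5 ± 1.32 (SD, n = 2). By mean percentile the order was R1, R2, R3, Rm and R4. Neighbours in this order differed by less than the sum of their SDs. These SDs are spreads over the same 2 replicates, so they do not measure the spread of a difference within a replicate. In both replicates R1 ranked above R2, R2 above R3, and R3 above Rm and R4. R2 stood at 74.5 against 60.0 for R3 in replicate 1, and at 85.7 against 71.7 in replicate 2. The lower places were not fixed: R4 ranked above Rm in replicate 1, and also in the lenient lists, with mean percentiles of 72.5 and 72.4. By the deposited −log10 p R4 stood above R3 in both replicates, at 18.6 against 17.9 and 24.2 against 23.6. By the same measure Rm stood below both in replicate 1, at 15.3, and above both in replicate 2, at 30.0. R1 and R2 held the first places by either measure in both replicates. With 2 replicates no test of the order was made.

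**Figure D2:**
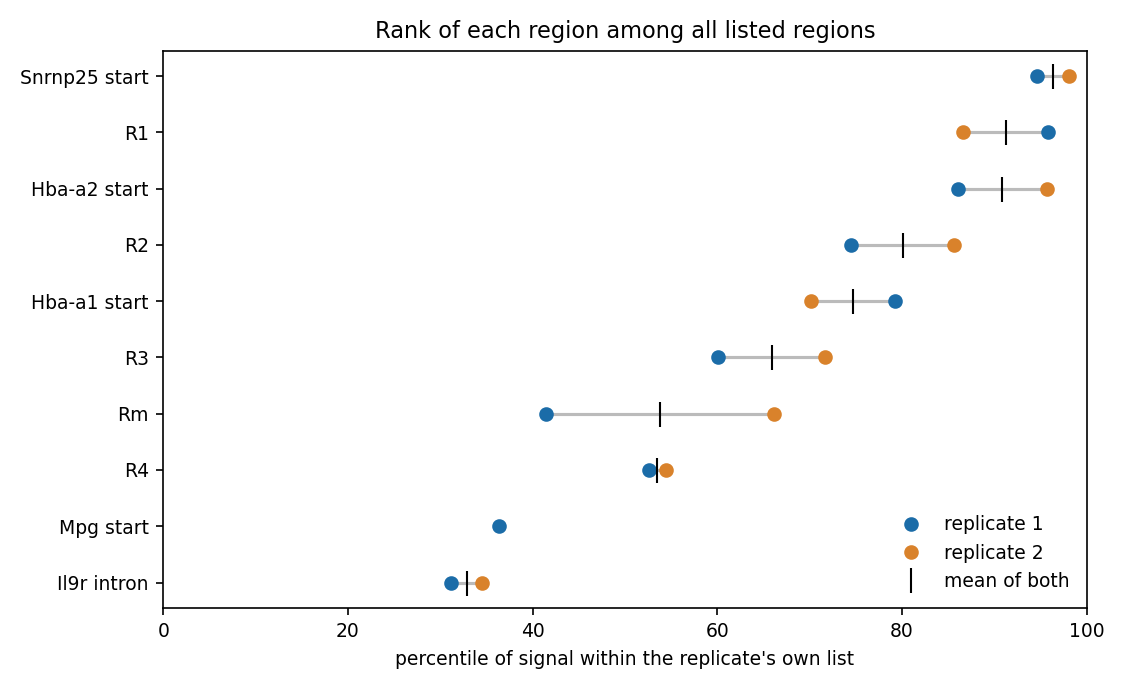
Percentile of each region's signal within its own replicate's list (x axis, 0 to 100) for the 10 regions of the span (y axis, ordered by mean), with 1 point per replicate and a tick at the mean of both. Snrnp25 has the highest mean, with 94.7 and 98.1, R4 has the closest replicates at 52.6 and 54.4, and Rm has the widest spread, from 41.4 to 66.1.

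RefSeq also lists 12 DNase I hypersensitive sites upstream of the cluster, named by their distance in kb from the zeta-globin gene, several of which coincide with the enhancers. Regions in both replicates overlapped 4 of the 7 erythroid sites, namely HS-31 at R1, HS-26 at R2, HS-21 at R3 and HS-8 at R4. The erythroid sites HS-45, HS-29 and HS-12 were not overlapped. RefSeq gives these intervals as approximate, and the Rm region lay 356 bp from the HS-12 interval in replicate 1 and 333 bp in replicate 2. The missing overlap therefore does not show that HS-12 lacked a region. None of the 3 constitutive sites (HS-39, HS-38 and HS-10) and neither of the 2 fibroblast sites (HS-15 and HS-14.5) was overlapped in the main lists. HS-39 was overlapped in the lenient list of replicate 2, and HS-38 had an entry in the authors' between-replicate list with an IDR of 0.272, which misses the threshold of 0.05. HS-10, at the Nprl3 start, lay 1003 and 981 bp from the nearest region.

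R2 is the enhancer for which RefSeq annotates single protein-binding sites, and all 7 lay inside the listed region in both replicates. They are shown on the plus strand of mm10, with capitals at matches to the GATA or AP-1 string, because they set known footprints against the accessible interval. The sites named mFP-I, mFP-IIa and mFP-IV are annotated as bound by GATA1, mFP-IIb and mFP-III by AP-1 or NF-E2, and the 2 probes by KLF3.
mFP-I (chr11:32250991-32251002): aacCTATCAgtg
probe 1 (chr11:32251018-32251038): aggtgtacacacccaggccaa
probe 2 (chr11:32251032-32251053): aggccaagggtggagcagacca
mFP-IIa (chr11:32251079-32251094): acgagcAGATAActaa
mFP-IIb (chr11:32251095-32251116): gccaagcaTGACTCAgagtttc
mFP-III (chr11:32251135-32251150): ctgagtaatacttggg
mFP-IV (chr11:32251186-32251195): actgattagg

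The summits of R2 fell at the KLF3 probes. Relative to the summit, the centre of probe 1 lay at -4 bp in replicate 1 and -16 bp in replicate 2, and that of probe 2 at 10.5 and -1.5 bp. The GATA sites flanked them, with mFP-I centred at -35.5 and -47.5 bp and mFP-IIa at 54.5 and 42.5 bp. The AP-1 or NF-E2 site mFP-IIb was centred at 73.5 and 61.5 bp. Matches to the strings were found in mFP-I, mFP-IIa and mFP-IIb, and none in the other 4, which says only that those letters are not there.

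The GATA string occurred in the 200 bp windows of 8 of the 9 shared regions, 14 matches in all, and in 5 of 5 enhancer windows, with 10 matches. Among all 17425 shared regions 42.3% held it. The share was 68.9% of the 8227 regions over 1000 bp from any start site and 18.5% of the 9198 start-site regions. With windows of 100 bp the matches numbered 8, with GATAA as the only string 9, and with the summits of the other replicate 15. R1 had 3 matches, R2, R3 and R4 had 2 each, and Rm had 1, so 4 of the 5 enhancers had 2 or more, against 19.2% of all shared regions and 35.0% of distal ones. R1, Rm and R4 are distal, over 1000 bp from any start site, while R2 and R3 count as start-site regions through starts of noncoding Nprl3 transcripts. A match is a description of the letters and does not show that a protein is bound.

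The enhancers differed in what stood beside the GATA strings. The TAL1-GATA composite, CTG followed after 7 to 9 bases by the GATA string, occurred 2 times in R1 and 1 time in R3, and 12.7% of all shared regions, 22.5% of distal and 3.98% of start-site regions held it. Each composite contains a GATA match counted above. The AP-1 string occurred in R2, 62 bp from the summit, and in Rm, 15 bp from the summit, against 8.76% of all shared regions, 14.03% of distal and 4.06% of start-site regions. Rm also held the RUNX string TGTGGTT (11.02% of distal regions), and R2 the E-box string CAGATG. The E-box search, for CAGATG or CAGCTG, matched 26.5% of all shared regions, 35.4% of distal and 18.4% of start-site regions. R4 held GATA matches alone, at -27.5 and 24.5 bp from the summit. No enhancer window held the KLF1 string CCNCNCCC, which 43.9% of all shared regions and 28.1% of distal ones held. The R2 window holds both annotated KLF3 probes without a match to it, so its absence does not show that KLF sites are lacking. No window of the span held a CTCF match, found in 5.15% of all shared regions. All of these strings were searched on both strands.

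**Figure D3:**
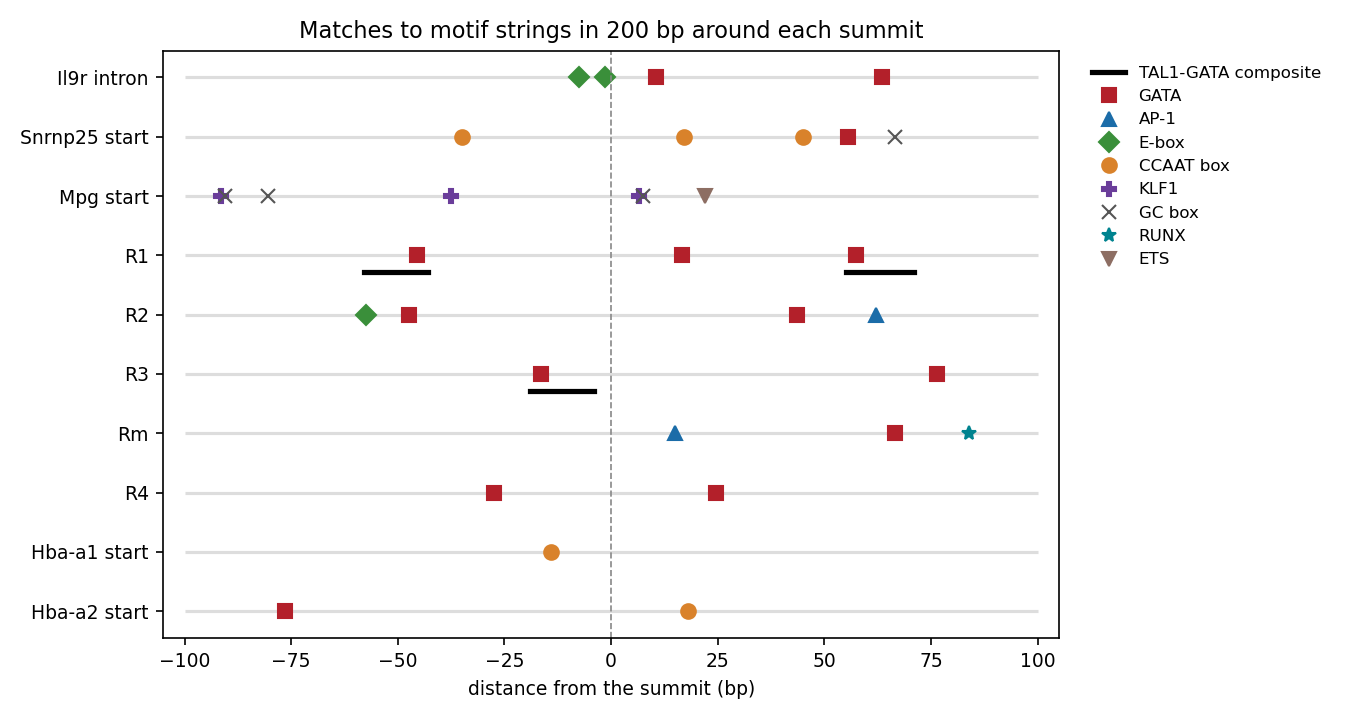
Position of each motif match in bp from the summit (x axis) in the windows of the 10 regions of the span (y axis, in chromosome order), with 1 symbol per motif and a black bar for each TAL1-GATA composite. GATA squares appear in the 5 enhancer windows and in those of the Il9r intron, Snrnp25 and Hba-a2, CCAAT circles in the Snrnp25 and alpha-globin start windows, and KLF1 and GC box symbols crowd the Mpg window.

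Hba-a1 (chr11:32283511-32284465) had a region over its start in both replicates, at chr11:32283221-32283798. Its signal was 11.8 in replicate 1 and 11.4 in replicate 2, at percentiles 79.2 and 70.1, a mean of 74.6 ± 6.43 (SD, n = 2). Hba-a2 (chr11:32296489-32297298) also had one in both, at chr11:32296157-32296723, with signals of 13.1 and 17.5 at percentiles 86.1 and 95.7, a mean of 90.9 ± 6.76 (SD, n = 2). Hba-a2 ranked above Hba-a1 in both replicates.

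The difference between the adult genes rests on sequence that the copies share. An exactly identical run of 1022 bp, from chr11:32283321-32284342 in Hba-a1 and chr11:32296138-32297159 in Hba-a2, held every summit. It made up 100% of the Hba-a2 region in both replicates, and 82.1% and 84.2% of the Hba-a1 region. Within the Hba-a2 region 0% of stretches of 36, 50 or 100 bases occurred once in the genome, and in the Hba-a1 region 16.2%, 18.9% and 20.9% did. The Hba-a1 region has 100 bases of its own at the left edge in replicate 1. How reads that align in several places were handled is not given in the sources used here, so the regions of Hba-a1 and Hba-a2 are uncertain as separate entries, and the difference in their signals cannot be assigned to either gene. The other 8 regions of the span were single-copy at 50 and 100 bases. At 36 bases only Rm was not wholly so, with 96.4% of its stretches occurring once.

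**Figure D4:**
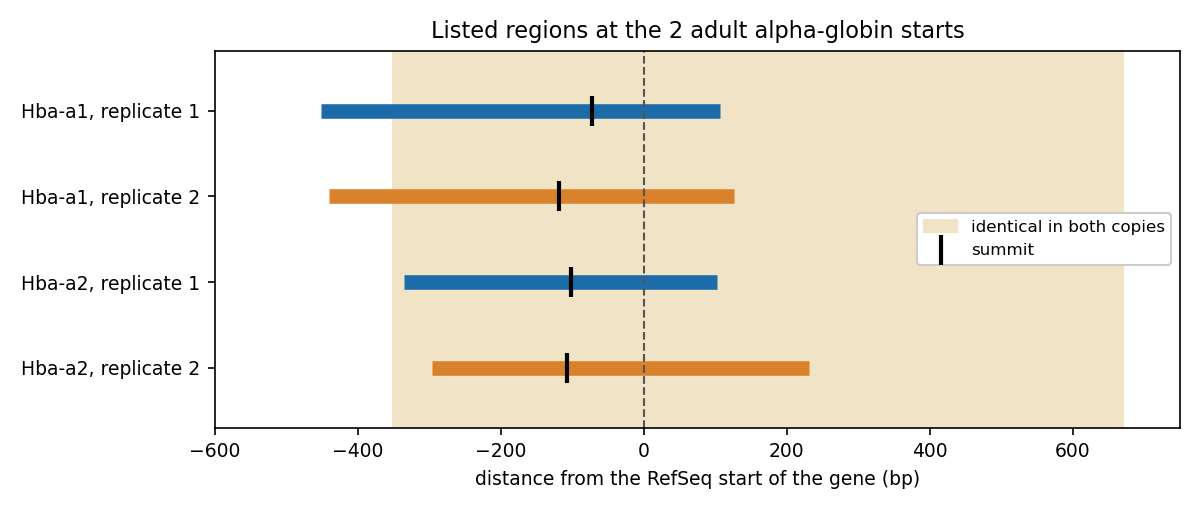
Extent of the listed region (bar) and its summit (tick) at Hba-a1 and Hba-a2 in each replicate, in bp from the RefSeq start of the gene (x axis, start at 0), with the run identical in both copies shaded. The 4 summits lie between -118 and -72 bp, all inside the shaded run, and only the Hba-a1 bars reach left of it.

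Measured from the RefSeq starts, the summits lay at -72 and -118 bp for Hba-a1 and at -102 and -107 bp for Hba-a2. GENCODE places the outermost Hba-a1 start 161 bp further upstream, so the summits fall within its first exon. The promoter windows of the pair, in the RefSeq table from 250 bases before to 50 after the start, were identical over 297 of 297 aligned bases. Each held 1 GATA string and 1 CCAAT box, which 29.8% and 37.4% of 32851 promoters in the table held. At Hba-a2 these run from -186 to -181 and from -91 to -87 bp, counted from the RefSeq start. The Hba-a2 sequence printed above ends just before the GENCODE start, which is 3 bp upstream of the RefSeq one. Both promoters were poor in CpG, with an observed to expected ratio of 0.188 against a median of 0.384 over all promoters. The 200 bp window of the Hba-a1 region, centred on the summit of replicate 1, held no GATA match, and that on the summit of replicate 2 held 1. The window of Hba-a2 held 1 with either summit.

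**Figure D5:**
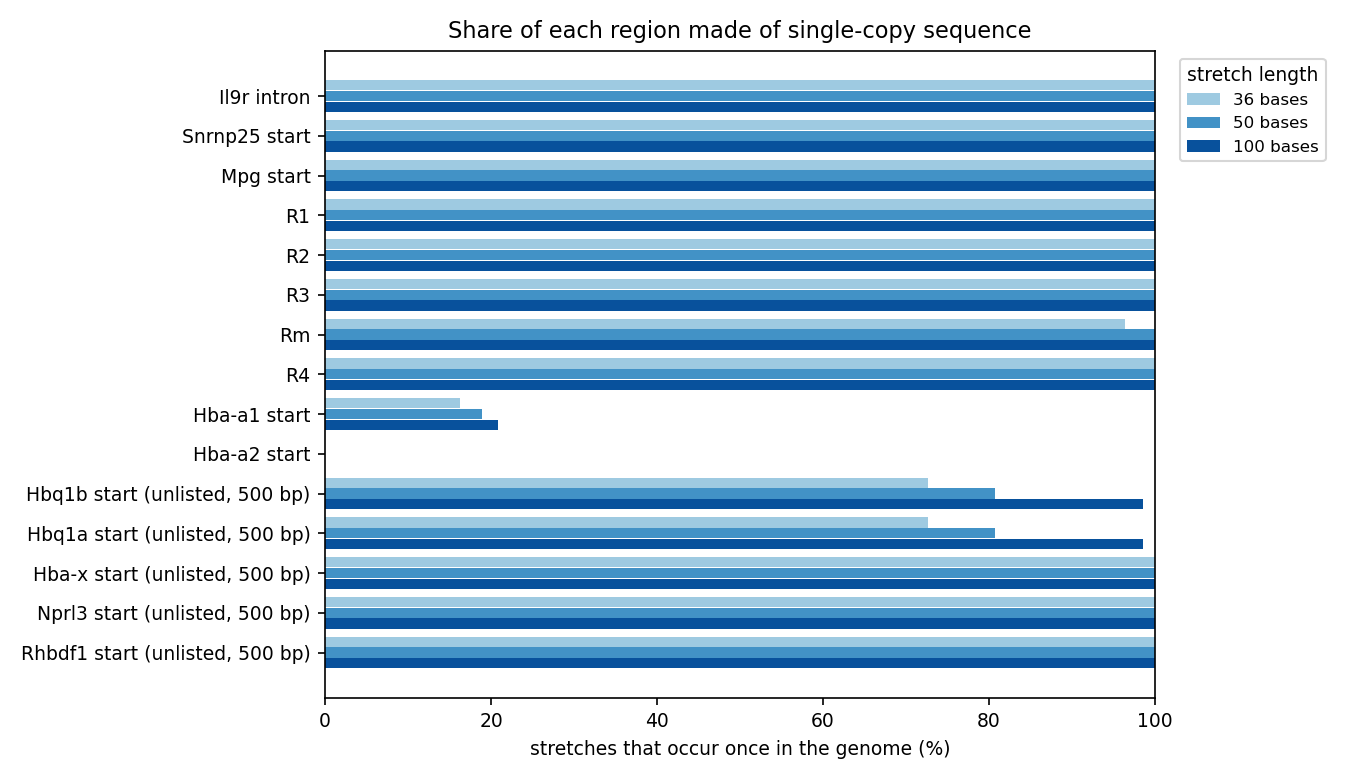
Share of stretches of 36, 50 and 100 bases that occur once in the mm10 genome (x axis, percent) in each listed region and in 500 bp around member starts without one (y axis). The Hba-a2 bars are at 0% and the Hba-a1 bars at 16.2% to 20.9%, while the enhancer regions stand at or near 100%.

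The embryonic gene Hba-x (chr11:32276400-32278116) had no region at its start in either replicate, in the main or the lenient lists. The nearest listed region was 6821 bp away in replicate 1 and 6831 bp in replicate 2, at Hba-a1. Its 500 bp around the start were single-copy at all 3 lengths. The Hba-x promoter window held 2 GATA strings, a TATA box (TATAAA, in 13.6% of promoters) at -28 to -23 bp and a CpG ratio of 0.0853, the lowest of the 8 members with an entry in the promoter table. Rhbdf1 had no entry. The TATA box position counts from the RefSeq start of Hba-x, just after chr11:32276599, which lies inside the GENCODE gene body given above.

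The theta-globin genes likewise had none in the main or lenient lists. Hbq1b (chr11:32286965-32287784) lay 3187 and 3167 bp from the nearest region, and Hbq1a (chr11:32300069-32300873) 3474 and 3346 bp. The authors' between-replicate list had an entry 34 bp from the Hbq1b start with an IDR of 0.477, which misses the threshold. Their promoter windows were identical at 286 of 300 positions (95.3%). Of stretches of 100 bases around each start 98.5% occurred once, against 72.7% of stretches of 36 bases. Each theta promoter held a CTCF match from -30 to -19 bp, which 3.36% of promoters held, and a CCAAT box. From the Hba-a2 region to the right end of the span no further region was listed in the main lists.

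Nprl3 (chr11:32225628-32267707, minus strand) counted as having a promoter region through R2 and R3 alone. R3 lay 71 bp and R2 766 bp from starts of noncoding Nprl3 transcripts inside the gene. At the outermost start the nearest region was R4 at 1306 and 1284 bp. The sequence there was single-copy at all 3 lengths and its promoter had a CpG ratio of 1.01, the highest of the members. The count of Nprl3 among genes with a promoter region therefore rests on the enhancers already described.

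Mpg, the DNA glycosylase that removes alkylated purines, starts inside the 3′ end of Nprl3 on the other strand (chr11:32226505-32232700). Its region at chr11:32226330-32226615 was in the main list of replicate 1 only, with a signal of 6.91 at percentile 36.4. In the lenient lists both replicates had it, with signals of 6.91 and 7.47 at percentiles 61.0 and 61.4 of those lists. The within-replicate IDR was 0.00386 in replicate 1 and 0.116 in replicate 2, while the between-replicate IDR was 0.00717. Its rank by signal was thus alike in both libraries, and the within-replicate IDR of replicate 2 is the value that misses the threshold of 0.05. The Mpg window was rich in G and C strings, with 3 KLF1 matches, 3 of the GC box GGGCGG and 1 of the ETS string CCGGAAG, held by 58.1%, 56.2% and 18.0% of start-site regions. Here 2 of the KLF1 matches overlap a GC box.

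Snrnp25, a protein of the minor spliceosome (chr11:32205415-32208984), had the region with the highest mean percentile of the span, although R1 ranked above it in replicate 1. At chr11:32205085-32205721 the signal was 15.6 in replicate 1 and 19.2 in replicate 2, at percentiles 94.7 and 98.1, a mean of 96.4 ± 2.45 (SD, n = 2). Its window held 3 CCAAT boxes, against 38.9% of start-site regions with 1 or more, and 1 GATA string. These are the capitals in the Snrnp25 sequence above.

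Rhbdf1, an inactive rhomboid that helps carry ADAM17 to the cell surface, lies between Snrnp25 and Mpg (chr11:32209585-32222300, minus strand). No region lay at any of its starts in the main or lenient lists, and the nearest was 4030 bp away in replicate 1 and 16728 bp in replicate 2. The gap between the replicates comes from Mpg, whose region was in the main list of replicate 1 only. An entry 248 bp from an internal Rhbdf1 start had a between-replicate IDR of 0.477.

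The remaining shared region lay in intron 1 of Il9r, the interleukin-9 receptor gene at the left of the span and no member here, at chr11:32195871-32196441. Its signals were 6.56 and 7.46, at percentiles 31.2 and 34.6, the lowest of the span in each replicate. It held 2 GATA and 2 E-box matches. The lenient lists held 13 and 12 regions in the span, 11 of them in both replicates. The Il9r start had regions there only, with signals of 4.39 and 4.04 and a between-replicate IDR of 0.0891. Of the other annotated genes of the span, Sh3pxd2b at its right end had its nearest region 51225 and 51097 bp away, and the pseudogene Gm12109 10866 and 10942 bp away.

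Shared regions over 1000 bp from any start numbered 4 in the span: R1, Rm, R4 and the Il9r intron. Within 50 kb of their outermost start, Mpg and Rhbdf1 had 4 such regions, Hba-x, Hba-a1, Hbq1b and Nprl3 had 3, and Hba-a2, Hbq1a and Snrnp25 had 2. These are the same few regions counted from different starts. Of all protein-coding genes 13.2% had at least 2, 5.51% at least 3 and 2.21% at least 4.

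Other genes of the members' families were counted in the same way, without the members. Of 8 matched other globins, beta-globin genes included, 1 had a promoter region in replicate 1 (Hbb-bs, signal 5.35, percentile 14.9) and 0 in both replicates. In the lenient lists Hbb-bs had one in both. Besides Nprl3, 7 of 7 GATOR complex genes had one in both replicates. So did 4 of 6 minor spliceosome genes besides Snrnp25 and 8 of 10 DNA glycosylase genes besides Mpg. Among rhomboid genes besides Rhbdf1 it was 5 of 8, with Rhbdf2 at percentiles 30.3 and 46.9. Over all protein-coding genes 39.1% had one in both replicates. These lists are short, and no difference from that share was tested.

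The label of an erythroid progenitor was set beside start-site regions of marker genes, in lists chosen with earlier results of these data known. All 8 of 8 erythroid markers had one in both replicates, against 39.1% of all protein-coding genes. In replicate 1 their percentiles ran from 7.12 (Tal1) to 88.8 (Nfe2). In replicate 2 they ran from 15.99 (Tal1) to 91.2 (Nfe2). Of the markers of other blood cells, 0 of 5 for granulocytes and macrophages and 0 of 4 lymphoid genes had one in both. For megakaryocytes it was 1 of 3 and for mast cells 0 of 3. The mast cell gene Cpa3 (percentile 17.4) and the megakaryocyte gene Pf4 (10.1) had one in replicate 1 only, both above Tal1 there. Cpa3 also had one in both lenient lists. Gata1, the gene that the line is labelled as lacking, is 1 of the 8 erythroid markers and had one at percentiles 16.2 and 16.6. That does not check the Gata1- label, since a region at a start site does not report on the gene's product.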

How the data were processed

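ATAC-seq of 2 replicates of the G1E line was analysed from the peak lists that the authors deposited on mm10, per the labels. Which aligner and caller were run is not given in the sources used here. Each listed peak has a deposited signal value (enrichment from the authors' caller), a deposited −log10 p-value and, in the IDR lists, a deposited score from which the IDR was read. Signal is not scaled between libraries, so percentiles were taken within a list, and the depth of each library is unknown.

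Peaks that overlapped or touched were merged, which left 21194 and 22620 regions in the thresholded lists and 35229 and 39290 in the lenient ones. Replicate regions were joined at an overlap of 1 bp. Start sites came from GENCODE M21, and enhancers, hypersensitive sites and promoter sequences from RefSeq GRCm38.p6. Motif strings were matched exactly on both strands. No test between groups was possible. Python 3.11.15, pandas 2.3.3, NumPy 2.4.6, pysam 0.24.0 and matplotlib 3.10.9 were used, and the functions were tested on simulated data. All 9 members, every other gene of the span and every merged region there were named by rule. The members and lists were chosen with earlier results of these data known. Alternatives covered the promoter window, start sites, lists, overlap, motif window and single replicates. The genes most alike to Hba-a2 are not reported here.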

Additional observations from a re-analysis of the deposited data

How the results depend on the processing

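Of 28 alternative values, 25 stayed within 1.5 times the main count or within the replicate spread and 3 moved. Some of these outcomes were fixed in advance. With 2 replicates, the percentile of either one alone always lies within the replicate spread. Without Hba-a1 and Hba-a2, an alternative chosen after seeing the data, 2 members had a promoter region in both replicates in place of 4. That drop was also fixed, since both genes were among the 4. The GATA matches in the shared windows fell from 14 to 8 with windows of 100 bp and to 9 with GATAA as the only string. Leaving out each replicate in turn gave 4 to 5 members, 9 to 10 regions in the span and a percentile of 86.6 to 95.8 for R1. The Mpg region is the one that rests on replicate 1 alone in the main lists. In the authors' conservative list of both replicates 5 members had a promoter region, Mpg among them, and the span held 10 regions. GENCODE basic transcripts, also chosen after seeing the data, gave 3 members. No paired analysis was possible because there is 1 group. The lists give no read totals, so depth limits what an unlisted start can show.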
